A study of Homo sapiens with 7 samples.

Results

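TXNIP, 4 further arrestin-domain genes (ARRDC1, ARRDC2, ARRDC3 and ARRDC4) and the 3 Mondo-type transcription factor genes MLX, MLXIP and MLXIPL were followed in HK-2 cells that had received siRNA against GLUT2. The 8 genes were selected by symbol, and all 8 were found among the 33694 genes of the deposited count table. HK-2 is an immortalised human epithelial line from the proximal tubule of the kidney. All cells were of this 1 line, were grown in the same medium, and were harvested 96 h after transfection with 50 nM siRNA. The scrambled group (4 libraries, replicates 1 to 4) received siRNA of scrambled sequence and is labelled WT. The siGLUT2 group (3 libraries, replicates 2 to 4) received siRNA against SLC2A2, the gene of the glucose transporter GLUT2, and is labelled GLUT2-KD. The knockdown is transient, with no edit of the genome. The comparison asks whether these genes, of which TXNIP and ARRDC4 are known to respond to glucose, differ when GLUT2 is targeted. The counts hold no measure of glucose or of its uptake.

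TXNIP and the ARRDC proteins are alpha-arrestins, adaptors that bring membrane proteins to NEDD4-family ubiquitin ligases for removal from the cell surface. TXNIP also binds thioredoxin, and both TXNIP and ARRDC4 restrain glucose uptake. Their genes are classical targets of MLXIP (MondoA) and MLXIPL (ChREBP), which sense glucose 6-phosphate and bind paired E-boxes, called carbohydrate response elements, as dimers with MLX. In the kidney, TXNIP is known for its response to high glucose in tubule cells.

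The promoter motifs are shown first because, of the 8 genes, only TXNIP matched the pair pattern searched for below. RefSeq promoter windows (GRCh38.p14, 250 bases before to 50 bases after an annotated start, 300 bases each) were found for all 8 genes, 11 windows in all. They were searched on both strands for a pair of half-sites 5 bases apart, a half-site being CACGNG or its reverse complement CNCGTG, and for the single E-box CACGTG, which is also a half-site. The pair stood in 27 of 35116 windows (0.0769%) over all genes, and TXNIP was the only one of the 8 genes with it, 88 bases upstream of the start. CACGTG stood in 2548 of all windows (7.26%), and in a window of ARRDC4 and of MLX, 210 and 50 bases upstream. The following lines give each match with 6 bases on either side, read along the gene's strand, with the half-sites or the E-box in capitals.
TXNIP, chr1:145996645-145996673, minus strand: gatgtgCACGAGggcagCACGAGcctccg
ARRDC4, chr15:97960487-97960504, plus strand: cctgtgCACGTGcacgcc
MLX, chr17:42567044-42567061, plus strand: gcgggtCACGTGggcacg
A match describes these letters only. A gene without one may hold such sites outside these windows, or sites that differ from the pattern.

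The libraries were checked as follows. SLC2A2 (ENSG00000163581, chromosome 3) had 13, 13, 7 and 17 counts in scrambled replicates 1 to 4 and 0 counts in every siGLUT2 library, in keeping with the labels. Total counts ran from 5654957 to 8455963 in scrambled and from 5881366 to 6914302 in siGLUT2 libraries. The siGLUT2 libraries had fewer detected genes (13433 to 13891, against 14844 to 15036) and a larger share of mitochondrially encoded counts (7.04% to 7.56%, against 4.91% to 5.53%). The part of these library differences in the results below was not tested. Of 17 proximal tubule markers 13 were detected, with a summed level of 688 to 716 CPM in scrambled and 548 to 587 CPM in siGLUT2 libraries, while LRP2, SLC5A1, SLC22A6 and SLC22A8 were at 0 throughout. All 5 endothelial markers were at 0, as were 4 of 5 leukocyte markers (PTPRC, CD3E, LYZ and MS4A1) and 1 of 6 fibroblast and pericyte markers (COL3A1). The leukocyte sum was that of CD68 alone, at 13.0 to 18.2 CPM in scrambled and 25.0 to 27.2 CPM in siGLUT2 libraries. The fibroblast and pericyte list summed to 13.9 to 21.1 CPM in scrambled and 21.7 to 27.6 CPM in siGLUT2 libraries. Within it the mean of COL1A1 went from 9.38 to 16.5 CPM. PDGFRB (1.69 and 1.23 CPM) and RGS5 (6.34 and 6.10 CPM) did not rise, so neither list rose as a whole. All 6 general epithelial markers were detected, at 1126 to 1238 CPM in scrambled and 634 to 766 CPM in siGLUT2 libraries. In bulk RNA, fewer cells with a transcript and less transcript per cell cannot be told apart.

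TXNIP rose slightly in siGLUT2 cells, ARRDC3 fell, and ARRDC4 was higher in each siGLUT2 library without passing the test. The levels of MLXIP, MLX, ARRDC1 and ARRDC2 overlapped between the groups. Levels are TMM-scaled CPM, that is, counts divided by the effective library size, and each mean carries its SD (n = 4 scrambled, n = 3 siGLUT2). A change is the log2 of siGLUT2 over scrambled with its SE. Each adjusted p comes from the quasi-likelihood fit of edgeR over the whole table (Benjamini-Hochberg), and a gene is called below 0.05. Of the 8 genes 7 passed the filter on low counts, MLXIPL being the exception. Of these 7, 1 rose and 1 fell (28.6% called), where over all 12404 tested genes 28.3% were called, 13.9% higher and 14.4% lower. The share called is thus that of the transcriptome at large. The median log2 fold change was 0.06 over the 7 genes and -0.0029 over all tested genes.

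**Figure D1:**
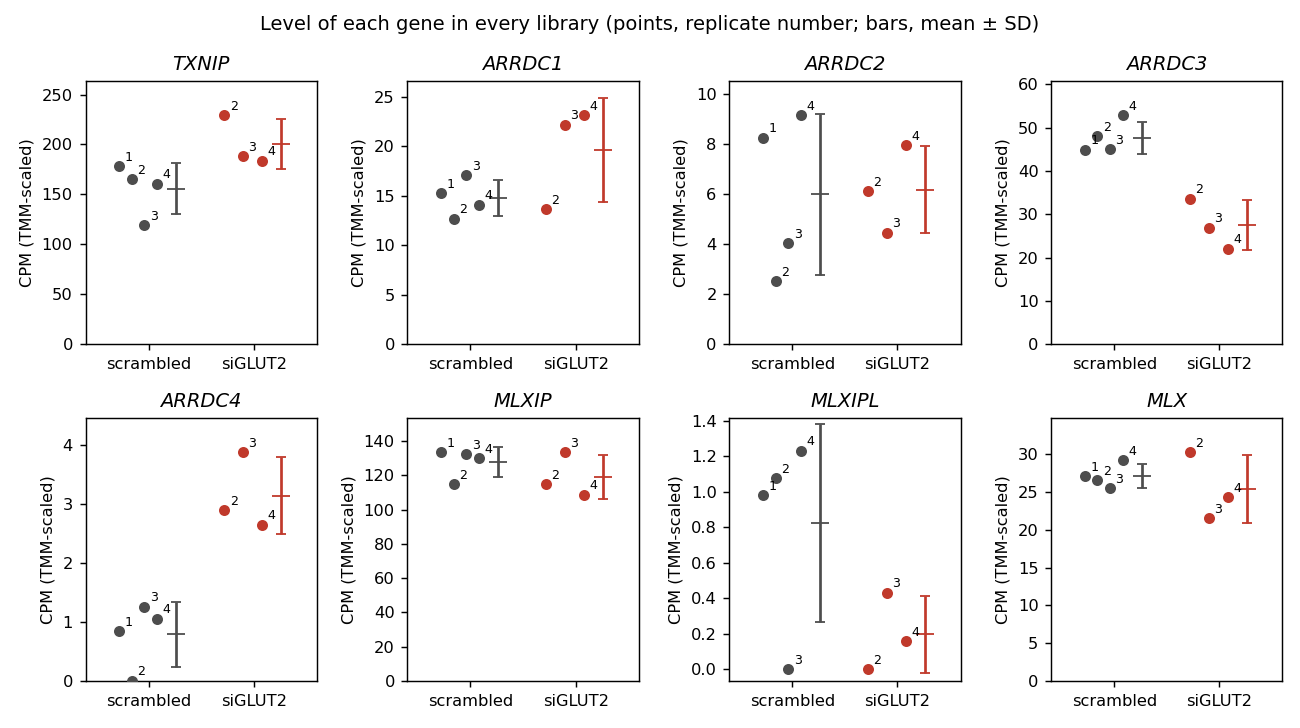
TMM-scaled counts (CPM; vertical axes, from 0 except that the MLXIPL axis extends below 0 for the error bar) of each gene in the 4 scrambled and 3 siGLUT2 libraries. Points are libraries with their replicate number, bars are mean ± SD, and TXNIP, ARRDC3 and ARRDC4 are the 3 tested genes whose groups do not overlap.

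TXNIP (ENSG00000265972, GRCh38 chromosome 1, 145992435 to 145996600, minus strand, protein coding) encodes the thioredoxin-interacting protein. It was at 179, 165, 119 and 161 CPM in scrambled replicates 1 to 4 and at 229, 188 and 184 CPM in siGLUT2 replicates 2 to 4. The groups did not overlap, but the highest scrambled library and the lowest siGLUT2 library lay close together, and scrambled replicate 3 was the lowest of all. The means were 156 ± 25.7 and 200.3 ± 25.1 CPM, a 1.28-fold difference (0.36 ± 0.12, 95% interval 0.11 to 0.61, adjusted p = 0.028). The call was lost without scrambled replicate 3 (0.25 ± 0.11, adjusted p = 0.104), without scrambled replicate 4 (0.38 ± 0.14, adjusted p = 0.054) and without siGLUT2 replicate 2 (0.25 ± 0.12, adjusted p = 0.107). The direction was upward in all 7 such fits.

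ARRDC4 (ENSG00000140450, chromosome 15, 97960698 to 97973838, plus strand) encodes the alpha-arrestin most often paired with TXNIP in glucose responses. It was scarce, with 6, 0, 10 and 6 counts in scrambled and 17, 27 and 17 counts in siGLUT2 libraries. These counts correspond to 0.839, 0, 1.26 and 1.06 CPM in scrambled and to 2.89, 3.88 and 2.65 CPM in siGLUT2 libraries. Each siGLUT2 library was above every scrambled one. The pooled level was 0.756 CPM in scrambled (exact Poisson 95% interval 0.474 to 1.14) and 3.17 CPM in siGLUT2 libraries (2.43 to 4.07). These intervals cover counting error at most and leave out the spread between the pooled libraries. They are too narrow if PCR copies of 1 molecule were counted apart. The fitted change was 1.99 ± 0.88 (95% interval 0.16 to 3.83), with an unadjusted p of 0.0347 and an adjusted p of 0.0984 by edgeR. ARRDC4 entered the test only through its siGLUT2 counts, so its direction was favoured by the filter. Limma-voom called it (2.71 ± 1.04, adjusted p = 0.0497), DESeq2 did not (adjusted p = 0.0534), and over 16 alternatives the adjusted p ran from 0.0497 to 0.234.

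ARRDC3 (ENSG00000113369, chromosome 5, 91368724 to 91383359, minus strand) encodes an adaptor known for directing the beta-2 adrenergic receptor and integrin beta-4 to ubiquitination. It was at 44.9, 48.0, 44.9 and 52.8 CPM in scrambled libraries and at 33.5, 26.9 and 22.0 CPM in siGLUT2 libraries. The groups stood clear of each other. The mean went from 47.7 ± 3.73 to 27.5 ± 5.79 CPM, 1.73-fold lower (-0.79 ± 0.18, 95% interval -1.16 to -0.43, adjusted p = 0.00151). ARRDC3 was called lower in all 17 alternatives, with changes between -0.96 and -0.66 and adjusted p-values between 0.000139 and 0.00968. The antisense transcript ARRDC3-AS1 overlaps 3011 bases of ARRDC3 and had 8 counts in all 7 libraries together, none of them in siGLUT2 libraries. How reads in the overlap were assigned is not known, as the strand setting is not given.

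ARRDC1 (ENSG00000197070, chromosome 9, 137605654 to 137615360, plus strand) encodes the arrestin that recruits TSG101 to bud small vesicles from the plasma membrane. Its level was 15.2, 12.7, 17.0 and 14.1 CPM in scrambled libraries. In siGLUT2 libraries it was 13.6, 22.2 and 23.1 CPM, with replicate 2 inside the scrambled range and the other two above it. The change of 0.41 ± 0.25 did not pass (95% interval -0.10 to 0.93, adjusted p = 0.233), nor did it in any of 17 alternatives (adjusted p 0.0621 to 0.481). Its convergent antisense neighbour ARRDC1-AS1, which overlaps the last 29 bases of the gene, fell from 40, 25, 58 and 35 counts to 6, 5 and 11 counts (-2.24 ± 0.62, adjusted p = 0.00888 by edgeR, 0.0511 by limma-voom). ARRDC1-AS1 was named after its values were seen. It entered the test only through its scrambled counts, so its direction was favoured by the filter. The strand setting of the counting is not given in the sources used here, so reads at the shared end cannot be assigned with certainty.

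ARRDC2 (ENSG00000105643, chromosome 19, 18001132 to 18014102, plus strand), a less studied arrestin of the same family, varied more within than between groups. It was at 8.25, 2.51, 4.04 and 9.16 CPM in scrambled and at 6.13, 4.46 and 7.96 CPM in siGLUT2 libraries. The siGLUT2 values all lay inside the scrambled range (0.06 ± 0.46, 95% interval -0.89 to 1.00, adjusted p = 0.944). The interval is wide, and the sign turned in 3 of 7 fits that left out 1 library.

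MLXIP (ENSG00000175727, chromosome 12, 122078722 to 122147347, plus strand) encodes MondoA, the glucose-sensing factor of many non-hepatic cells. It was at 134, 115, 132 and 130.1 CPM in scrambled and at 115, 133 and 109 CPM in siGLUT2 libraries, with overlapping groups. The change of -0.10 ± 0.11 did not pass (adjusted p = 0.537), with a 95% interval of -0.33 to 0.13.

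MLX (ENSG00000108788, chromosome 17, 42567068 to 42573239, plus strand) encodes the obligate dimer partner of both Mondo factors. Its levels were 27.1, 26.6, 25.5 and 29.2 CPM in scrambled and 30.3, 21.6 and 24.4 CPM in siGLUT2 libraries. The siGLUT2 libraries bracketed the scrambled ones (-0.09 ± 0.19, 95% interval -0.49 to 0.30, adjusted p = 0.762). The 3' end of MLX overlaps that of PSMC3IP, on the opposite strand, over 925 bases. PSMC3IP, also named after its values were seen, was at 26.4 ± 4.38 and 23.7 ± 3.11 CPM (adjusted p = 0.623), and reads of the shared stretch cannot be told apart without strand.

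MLXIPL (ENSG00000009950, chromosome 7, 73593194 to 73624543, minus strand) encodes ChREBP, the Mondo factor of liver, fat and pancreatic islets. It was barely detected, with 7, 9, 0 and 7 counts in scrambled and 0, 3 and 1 counts in siGLUT2 libraries. The pooled level was 0.790 CPM (exact Poisson 95% interval 0.501 to 1.19) in scrambled and 0.208 CPM (0.0567 to 0.533) in siGLUT2 libraries. The limits given for the ARRDC4 intervals apply here too. Both groups included a library at 0 and overlapped. Fitted without the low-count filter, the change was -1.95 ± 1.86 (adjusted p = 0.487), so no difference was detectable at this depth.

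**Figure D2:**
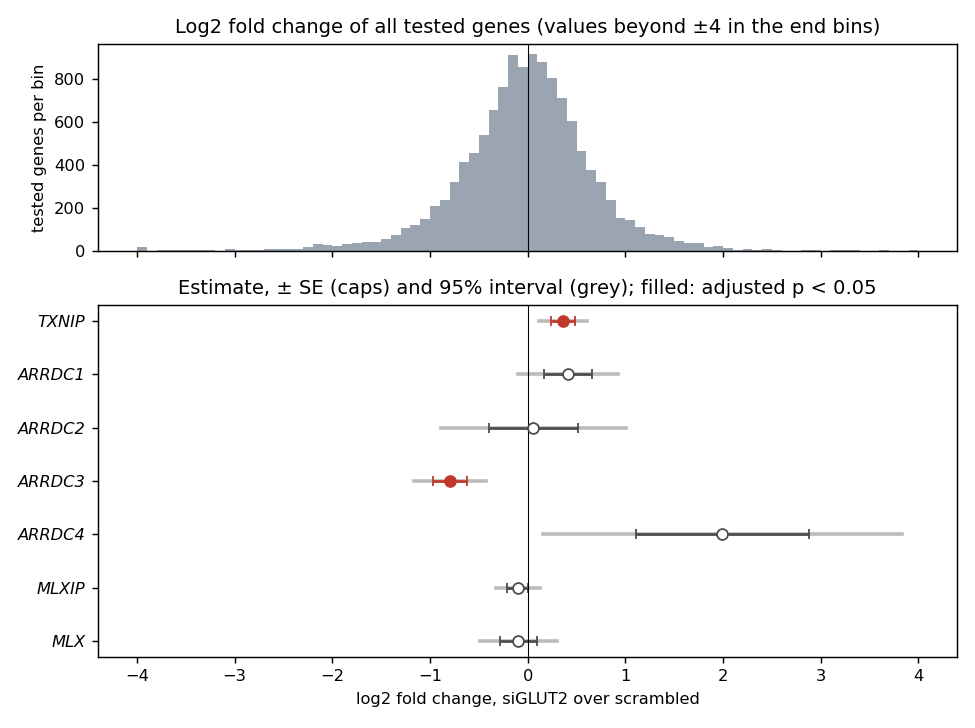
Log2 fold changes of siGLUT2 over scrambled (horizontal axis). The upper panel counts all 12404 tested genes per bin, and the lower panel gives the 7 tested genes with SE (caps) and 95% interval (grey), filled where the adjusted p is below 0.05, as for TXNIP at 0.36 and ARRDC3 at -0.79.

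TXNIP and ARRDC3 thus moved in opposite directions, although both are alpha-arrestins. CPM values did not overlap for 3 of the 7 tested genes (42.9%), against 35.1% over all tested genes. ARRDC4, 1 of these 3, entered the test only through its siGLUT2 counts, so its lack of overlap was favoured by the filter. No result about the 7 genes is read from this share. The log2 ratio of TXNIP to ARRDC3 counts within a library, on which scaling has no influence, was 1.99, 1.78, 1.41 and 1.61 in scrambled and 2.77, 2.81 and 3.06 in siGLUT2 libraries. Every siGLUT2 library exceeded every scrambled one, which had to follow because neither gene's levels overlapped and the genes moved oppositely. This ratio therefore adds no separate support. The log2 ratio of TXNIP to MLX was 2.72, 2.63, 2.22 and 2.46 in scrambled and 2.92, 3.12 and 2.92 in siGLUT2 libraries, again without overlap. The ratio of TXNIP to MLXIP did overlap, since siGLUT2 replicate 3 at 0.50 lay below scrambled replicate 2 at 0.52. These ratios were looked at because of the levels above and are given without a test.

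Other glucose-responsive targets of the Mondo factors were called at a share near that of all genes. Of 19 such genes besides the 8, 13 were tested, 2 rose and 1 fell, with a median of 0.03, where 13.9% of all tested genes were higher and 14.4% lower. The same background applies to each list below. KLF10, a Krüppel-like repressor, rose from 32.5 ± 4.91 to 53.9 ± 14 CPM (0.73 ± 0.19, adjusted p = 0.00468). ACLY, which makes cytosolic acetyl-CoA, rose from 354 ± 13.1 to 481 ± 22.4 CPM (0.44 ± 0.08). PFKFB3, the bifunctional enzyme that raises fructose 2,6-bisphosphate, fell from 142 ± 15.7 to 109 ± 10.4 CPM (-0.39 ± 0.11, adjusted p = 0.0133). The PFKFB3 call was lost without scrambled replicate 4 (adjusted p = 0.0704) or siGLUT2 replicate 3 (0.0628). These lists were drawn up with earlier results of the data known.

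**Figure D3:**
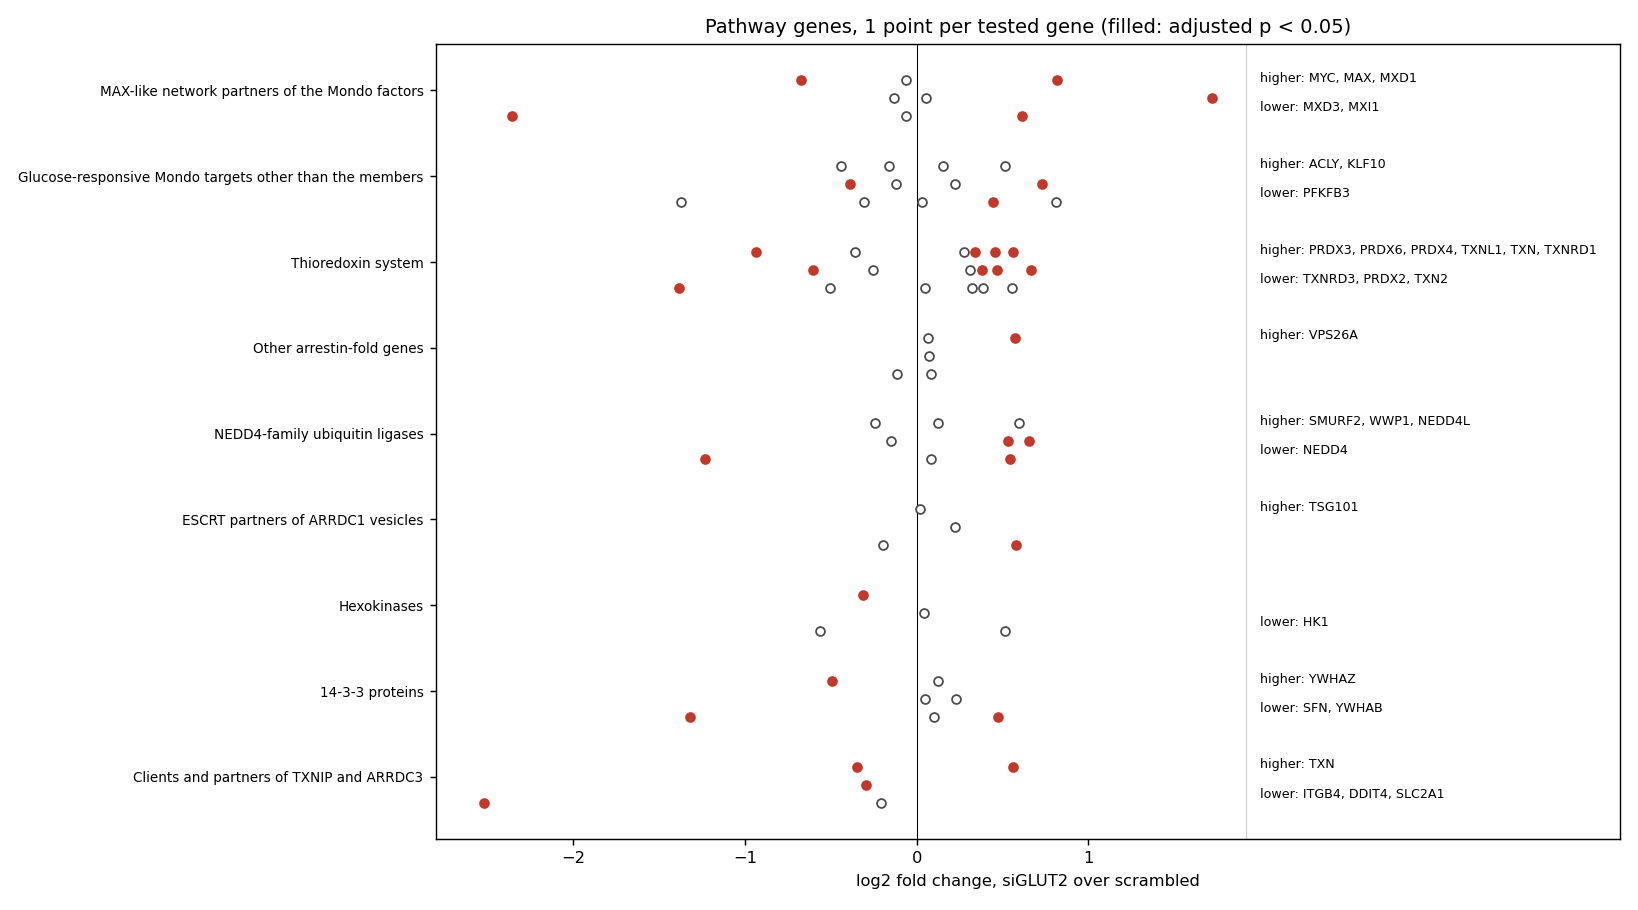
Log2 fold change of siGLUT2 over scrambled (horizontal axis) for each tested gene of 9 lists around the arrestin-domain and Mondo genes. Filled points have an adjusted p below 0.05 and are named at the right, and filled points lie on both sides of 0 in 6 of the lists.

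Among 10 genes of the MAX-like network, whose proteins share dimer partners and E-boxes with the Mondo factors, 9 were tested, 3 rose and 2 fell (all tested genes, 13.9% and 14.4%). MAX, the common partner of MYC and the MXD repressors, rose from 56.9 ± 4.84 to 100.3 ± 8.25 CPM (0.82 ± 0.12, adjusted p = 3.23e-05). MXD1 rose from 3.94 ± 2.01 to 12.9 ± 6.38 CPM (1.72 ± 0.44), a call lost without siGLUT2 replicate 4 (adjusted p = 0.0571). MXD3 fell from 15.6 ± 2.75 to 2.99 ± 1.46 CPM (-2.36 ± 0.37) and MXI1 by 0.67 ± 0.16 on the log2 scale. MYC, named to complete the count, rose by 0.61 ± 0.17 on that scale (adjusted p = 0.00926, and 0.0692 without siGLUT2 replicate 3). The network's median was -0.06, and of its tested genes MXD1 and MXD3 lay farthest apart. MXD3 passed the filter on low counts only through its scrambled counts, so its direction was favoured.

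The thioredoxin system, to which TXNIP binds, had 6 rises and 3 falls among 18 tested genes, with a median of 0.31 (all tested genes, 13.9% higher, 14.4% lower and a median of -0.0029). Thioredoxin itself (TXN) rose from 408 ± 88.1 to 604 ± 49.5 CPM (0.56 ± 0.12, adjusted p = 0.00115). Its cytosolic reductase TXNRD1 rose from 262 ± 4.33 to 417 ± 85.3 CPM (0.67 ± 0.10), and the peroxiredoxin PRDX6 by 0.38 ± 0.08. The mitochondrial thioredoxin TXN2 fell from 103 ± 13 to 67.9 ± 2.55 CPM (-0.60 ± 0.13, adjusted p = 0.000903). The other falls, named to complete the count, were in PRDX2 (-0.94 ± 0.21) and TXNRD3 (-1.38 ± 0.33). TXN and TXNIP were thus both higher in siGLUT2 cells, the TXNIP call depending on single libraries as given above. In scrambled replicate 3 TXN was the highest of its group (529 CPM) and TXNIP the lowest (119 CPM). TXN and TXN2 changed in opposite directions.

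Of 11 genes of the NEDD4-family ubiquitin ligases that alpha-arrestins recruit, and of their activators, 9 were tested, 3 rose and 1 fell, with a median of 0.13 (28.3% of all tested genes were called, 13.9% higher and 14.4% lower). NEDD4 fell from 98.1 ± 7.14 to 41.8 ± 9.36 CPM (-1.23 ± 0.15, adjusted p = 1.99e-06), the lowest fold change among the 9 tested genes. Its close relative NEDD4L rose from 102 ± 12 to 161 ± 21.8 CPM (0.65 ± 0.12), and WWP1 rose by 0.55 ± 0.14. SMURF2 rose by 0.53 ± 0.19 (adjusted p = 0.0406), a call lost in 5 of 7 fits without 1 library, namely scrambled replicate 1, 2 or 4 or siGLUT2 replicate 3 or 4 (adjusted p 0.0539 to 0.131). Among the 4 ESCRT partners of ARRDC1 vesicles, TSG101 rose from 24.6 ± 3.92 to 37.0 ± 3.85 CPM (0.58 ± 0.19, adjusted p = 0.022). Leaving out scrambled replicate 1, scrambled replicate 4 or siGLUT2 replicate 2 ended that call (adjusted p 0.0599 to 0.0784). VPS4A (-0.20 ± 0.15), VPS4B (0.02 ± 0.13) and PDCD6IP (0.22 ± 0.17) did not pass. Of 8 other arrestin-fold genes 5 were tested and 1 was called, the retromer subunit VPS26A, which rose (0.58 ± 0.14, adjusted p = 0.00263).

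Genes tied by known function to glucose sensing or to the arrestins were described from 3 further lists. Of 4 tested hexokinases, whose product glucose 6-phosphate activates the Mondo factors, 1 was called: HK1 fell from 159 ± 12.1 to 128 ± 8.61 CPM (-0.31 ± 0.10, adjusted p = 0.0251). The HK1 call was lost without scrambled replicate 3 (adjusted p = 0.0846) or 4 (0.0886). Of 7 genes for 14-3-3 proteins, which hold Mondo factors in the cytoplasm, YWHAZ rose (0.47 ± 0.07), while SFN (-1.32 ± 0.16) and YWHAB (-0.50 ± 0.07) fell. Among 5 tested clients and partners of TXNIP and ARRDC3, TXN rose and 3 fell. The RNA of ITGB4, the integrin that ARRDC3 targets as a protein, fell from 7.53 ± 2.80 to 1.29 ± 0.33 CPM (-2.52 ± 0.52, adjusted p = 0.000788). ITGB4 entered the test only through its scrambled counts, so its direction was favoured by the filter. SLC2A1, which encodes the TXNIP client GLUT1, fell by 0.29 ± 0.09 on the log2 scale (adjusted p = 0.0161, and 0.053 without scrambled replicate 3). DDIT4, a stress-induced partner of TXNIP, fell by 0.35 ± 0.13 (adjusted p = 0.0426), and that call was lost in 6 of the 7 fits that left out 1 library, all but the one without siGLUT2 replicate 4 (adjusted p 0.0683 to 0.16).

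The genes whose profile was most like each of the 3 non-overlapping arrestins were found by the root mean square difference in centred log2 CPM over the 7 libraries, among 6939 tested genes whose mean reached 20 CPM. For TXNIP they were SP110 (0.083 log2 units), STK17A (0.093), RNF10 (0.098) and SYT1 (0.10). These 4 had fitted changes of 0.29 to 0.36, near that of TXNIP, and did not pass in edgeR (adjusted p 0.0509 to 0.242), though RNF10 passed in DESeq2 and limma-voom. For ARRDC3 they were PTPN13 (0.068), NT5DC1 (0.090), CDC27 (0.097) and TMTC3 (0.099), all called lower, with NT5DC1 losing its call without scrambled replicate 4 (adjusted p = 0.0772) or siGLUT2 replicate 4 (0.0681). For ARRDC4 the nearest were GTPBP2 (0.28), PLAU (0.49), MSX1 (0.54) and IL4I1 (0.56), all called higher. ARRDC4 itself lay far below the 20 CPM asked of these genes, so its profile rests on few counts. Its distances were also larger than those for TXNIP and ARRDC3, so the likeness is looser. All these genes were picked for profiles like those of the arrestins, so their shared direction follows from the choice.

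The annotated 3' UTRs were read for the 7-base words GACCTTA and ACCTTAA, which an earlier scan of these same fold changes had picked out. Neither word stood in the longest 3' UTR of any of the 8 genes, ARRDC3 (2676 bases) and TXNIP (1416 bases) included. Either word stood in 15.3% of 11615 tested genes with an annotated 3' UTR. At a share this low, absence from 8 genes does not set them apart, and nothing is concluded from it. Because the words were chosen on these fold changes, their counts among genes that moved are not given.

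**Figure D4:**
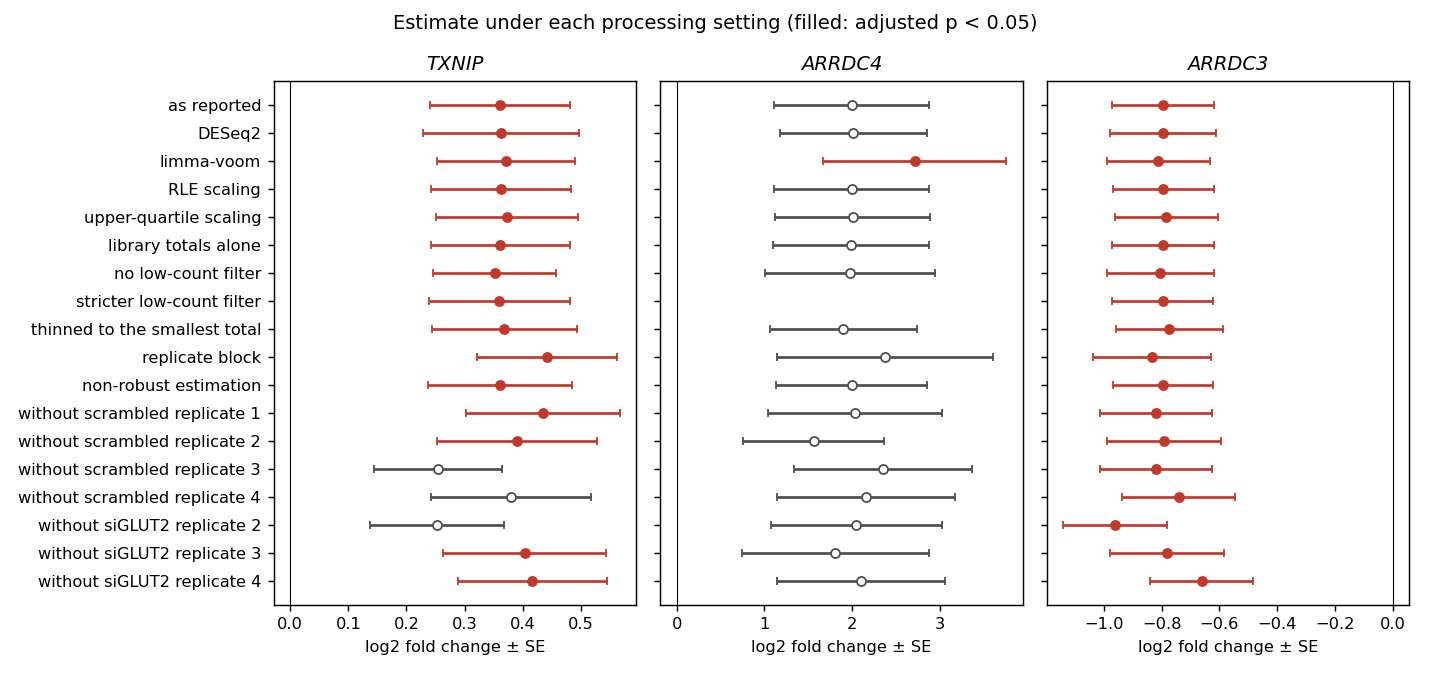
Log2 fold change ± SE (horizontal axes) of TXNIP, ARRDC4 and ARRDC3 as reported and under each alternative, filled where the adjusted p is below 0.05. ARRDC3 is filled throughout, TXNIP is open in 3 settings that leave out 1 library, and ARRDC4 is filled with limma-voom alone and has no value under the stricter filter.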

How the data were processed

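Total RNA was sequenced with a 3' digital mRNA-seq service, single-end, per the labels' protocols. The authors deposited raw counts per Ensembl gene, and the submitters' processing notes list STAR, HTSeq, edgeR and hg38, with no versions. Not given in the sources used here are the annotation release, the strand setting and whether molecular identifiers were used. All 7 count columns matched a sample title. A 3' count is not divided by length, so levels were not ranked between genes.

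All 7 libraries were fitted with edgeR 4.0.16 in R 4.3.3 (filterByExpr with minimum count 10 and minimum total 15, TMM, robust estimateDisp and glmQLFit, glmQLFTest, no covariate). SE is the absolute log2 fold change over the root of F. MLXIPL was fitted without the filter. Alternatives used DESeq2 1.42.0, limma 3.58.1 and other settings named at the end. Scripts were checked on simulated counts. Positions and 3' UTRs are from GENCODE 29 (GRCh38), promoters from RefSeq. The labels call the libraries biological replicates, and all are of 1 cell line, so p-values measure the spread between its samples.

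The 8 genes and all lists were chosen with earlier results of these data known. Named were the 8 genes, SLC2A2, up to 4 called genes per list with the smallest adjusted p (in a list without a call, the 2 with the highest CPM; in a list of 4 or fewer, every gene), and the 4 genes most like TXNIP, ARRDC4 and ARRDC3 (log2 CPM with a prior count of 2). MYC, PRDX2, TXNRD3, ARRDC1-AS1 and PSMC3IP (5 genes) and the overlap ARRDC3-AS1 were added after values were seen.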

Additional observations from a re-analysis of the deposited data

How the results depend on the processing

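The number of genes called over the whole table was 3509 and ran from 2649 to 3731 over 10 alternative settings and from 2796 to 3778 without 1 library. Of the 8 genes, 2 were called. The number was 2 or 3 over the 10 settings, 3 only with limma-voom, which added ARRDC4, and 1 to 2 without 1 library, 1 when TXNIP lost its call. Among 119 refits of single genes of the 8, 3 lost and 1 gained a call, and among 760 refits of the other named genes 31 lost and 8 gained one. No called change turned its sign. Replicate numbers 2 to 4 occur in both groups, but the correlations of same-numbered libraries' deviations were -0.0032 to 0.015, and 2 of 3 siGLUT2 libraries correlated best with their own number, so the numbers were not taken as a pairing. With the replicate block 2649 genes were called, and TXNIP (0.44) and ARRDC3 kept their calls, while SLC2A2 (adjusted p = 0.0577), SLC2A1 (0.0505), SMURF2 (0.113), TSG101 (0.0707) and DDIT4 (0.0997) lost theirs. SMURF2 also lost its call without the low-count filter (0.0587) and DDIT4 with thinned counts (0.0632). RNF10, not called as reported (0.0509), was called under 7 of the 10 settings. Depth limits ARRDC4 and MLXIPL most: in a single library 3 counts correspond to 0.359 to 0.528 CPM. The stricter filter removed ARRDC4, and MLXIPL had a value only without the filter.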
